A study of Mus musculus with 8 samples.

Results

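The 10 genes described here encode 7 cathepsins (Ctsk, Ctsb, Ctsl, Ctsd, Ctss, Ctsz and Ctsa) and 3 proteins of acid bone resorption: the tartrate-resistant acid phosphatase (Acp5), carbonic anhydrase II (Car2) and the d2 subunit of the vacuolar proton pump (Atp6v0d2). They were taken by gene symbol, and all 10 have a row in the table of 16369 genes. They were measured in 8 RNA-seq libraries of MLO-Y4 cells, an immortalised osteocyte-like line from mouse long bone. In 4 libraries the long non-coding RNA H19 had been silenced with an antisense oligonucleotide (ASO), with the genotype given as H19 silenced. The other 4 were controls, labelled WT and called NC in the descriptions, and what these cells received is not stated. All cells were kept in fluid chamber slides and given a shear stress of 2 Pa for 4 cycles, so the comparison of ASO with control describes silencing under flow. The silenced transcript itself is not analysed here, and the labels stand unchecked by it. Whether the 4 libraries of a group are separate cultures is not stated, and the p-values below cover the spread between libraries, which may be technical.

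Cathepsins are proteases that work mainly in the acid interior of lysosomes. In an osteoclast, the bone-resorbing cell, the vacuolar proton pump acidifies the space below the cell with protons supplied by carbonic anhydrase II, and secreted cathepsin K then cuts the type I collagen of the matrix. Osteocytes, which lie enclosed in bone, can also remove mineral and collagen around their lacunae, and mouse osteocytes switch on Ctsk and Acp5 when they do so during lactation.

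The cells carried most of the cathepsins at high levels, Ctss apart, and the other acid resorption genes hardly at all, with and without the ASO. With the ASO, 1 of the 9 members with enough reads for testing fell, namely Ctsa, which encodes the lysosomal carboxypeptidase that also protects 2 other lysosomal enzymes, and 0 rose. That is 11.1% of the members, against 14.6% of all 12227 tested genes in either direction and 7.53% of them lower and 7.11% higher (quasi-likelihood test of edgeR, p adjusted over all tested genes by Benjamini-Hochberg and under 0.05, n = 4 per group). A negative log2 fold change was found in 8 of the 9, with a median of -0.16, against a negative value in 49.4% and a median of 0.0026 over all tested genes. The 4 ASO libraries lay entirely on one side of the 4 control libraries in 2 of the 9 members (Ctsd and Ctsa), against 19.1% of all tested genes.

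Libraries held 19501984 to 19914209 estimated reads, so that 3 reads, the limit that a count of 0 allows, stood for 0.15 to 0.16 CPM, a unit scaled to library size but not to gene length. In both groups samples 1 and 2 stood apart from samples 3 and 4, a division the labels do not mention: over all tested genes, the chi-square per degree of freedom between ASO libraries was 7.23 within samples 1 and 2, 6.66 within samples 3 and 4 and 12.2 to 19.3 across them, and between control libraries it was 4.90, 5.62 and 11.7 to 18.1 in the same order. Fits with this division as a term, and of samples 1 and 2 or samples 3 and 4 alone, were therefore also made. The labelled cell type was checked against 10 osteocyte markers. Of these, Gja1, Pdpn, Ackr3 and Cd44 had means above 100 TPM in both groups, whereas Sost and Mepe had 0 to 2 reads per library and Dmp1 averaged 0.41 TPM in ASO and 1.14 TPM in control libraries. Of the 7 tested, Pdpn (log2 fold change 0.22, edgeR adjusted p = 0.031) and Cd44 (0.19, edgeR adjusted p = 0.033) were higher with the ASO, and Dmp1 (-1.46, edgeR adjusted p = 0.012) and Fbln7 (-0.46, edgeR adjusted p = 0.0042) were lower. The called genes were 57.1% of the 7, against 14.6% of all tested genes. Pdpn did not pass without ASO replicate 3 or 4 or control replicate 1, 2 or 4 (edgeR adjusted p up to 0.105), nor in samples 1 and 2 alone (edgeR adjusted p = 0.093).

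The sequence element known to drive many lysosomal genes is the CLEAR element, which is bound by TFEB and its relatives. It was searched as the E-box CACGTG with GT before it and AC after it, and the E-box was also searched alone. The windows searched were the 250 bases before each annotated start, and the sites below are all the E-boxes found in those of the members. They lie at Ctsa, Ctsd and Ctsl. In CPM the groups did not overlap for Ctsa and Ctsd but did for Ctsl, and a link between the motif and the levels was not tested. RefSeq (GRCm38.p6) starts were found for 7 of the 10 members, with 10 such windows, and Ctsb, Car2 and Atp6v0d2 had none in the table used. Each site has 30 bases, 5′ to 3′ on the strand of the gene, with the E-box in capitals.
Ctsa, chr2:164833743-164833772, plus strand: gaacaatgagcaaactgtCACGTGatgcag
Ctsd distal, chr7:142388048-142388077, minus strand: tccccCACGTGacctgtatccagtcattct
Ctsd proximal, chr7:142387908-142387937, minus strand: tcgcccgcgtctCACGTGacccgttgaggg
Ctsl, chr13:64370739-64370768, minus strand: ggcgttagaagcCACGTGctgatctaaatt
The E-box began 12 bases before the downstream of 2 Ctsa starts, 245 and 98 bases before the Ctsd start, and 236 bases before a Ctsl start that lies inside the gene. In GENCODE M21 the Ctsa box, the proximal Ctsd box and the Ctsl box also lie in an exon of another annotated transcript of the same gene, and the distal Ctsd box lies in none. The window before the upstream Ctsa start held no E-box, and gene-level counts do not show which start was used. Both motifs read the same on either strand, and the full CLEAR element was found in 0 of the 10 windows. Only exact matches were counted, so sites that differ from it by a single base, as at Ctsa and the proximal Ctsd box, were left out. With so rare a string, a count of 0 says little about these genes. For comparison, 3 of the 10 windows held the E-box, against 8.10% of 12493 windows of genes tested here and 6.02% of all 32851 windows. The full element was present in 0.51% and 0.24% of the same windows. Among lysosomal hydrolases and cofactors, 7 of 29 windows held the E-box (24.1%), so it is not particular to the members. Among other subunits of the vacuolar proton pump it was 2 of 21 windows (9.52%). The matches describe letters and not binding.

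The window before Ctsk, by contrast, held neither motif. It is shown as the RefSeq start of the member that is best known in bone. A stretch of bases shortly after this start was found in 0 GENCODE M21 transcripts of Ctsk, so the start is uncertain. Annotation over the window itself was not examined.
Ctsk, chr3:95498960-95499209, plus strand: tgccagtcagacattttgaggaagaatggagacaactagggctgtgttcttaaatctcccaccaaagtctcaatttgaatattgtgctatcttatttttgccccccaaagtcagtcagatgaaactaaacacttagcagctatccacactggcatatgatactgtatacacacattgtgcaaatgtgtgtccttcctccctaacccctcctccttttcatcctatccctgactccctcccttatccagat
Ctss, which lies close to Ctsk on chromosome 3, and Ctsz and Acp5 also had windows without an E-box. For the Acp5 windows at chr9:22135747-22135996 and chr9:22131866-22132115, the stretch after the start was likewise found in 0 GENCODE M21 transcripts of Acp5. Those starts are thus uncertain too.

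Levels between genes are compared in TPM, the authors' values scaled to gene length and library size. Ctsb, the most abundant member, ranked 112th to 133rd of the 16369 genes. Ctsz ranked 295th to 335th, Ctsl 320th to 408th, Ctsd 340th to 424th and Ctsa 365th to 472nd. The levels of Ctsl, Ctsd and Ctsa were close to each other, and their order varied between libraries. Ctsk stood lower at rank 1038 to 1816, and Ctss lower still at rank 9358 to 11125. Summed over the 7 cathepsins, the level was 2878, 2875, 3085 and 2928 TPM in the ASO libraries, against 3104, 3038, 3278 and 3177 TPM in the controls, so that these 7 genes made up 0.287% to 0.308% of all TPM with the ASO and 0.304% to 0.328% without. Ctsb alone was 42.2% to 44.7% of the sum in the 8 libraries, and Ctsk was 2.87% to 4.45% of it.

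**Figure D1:**
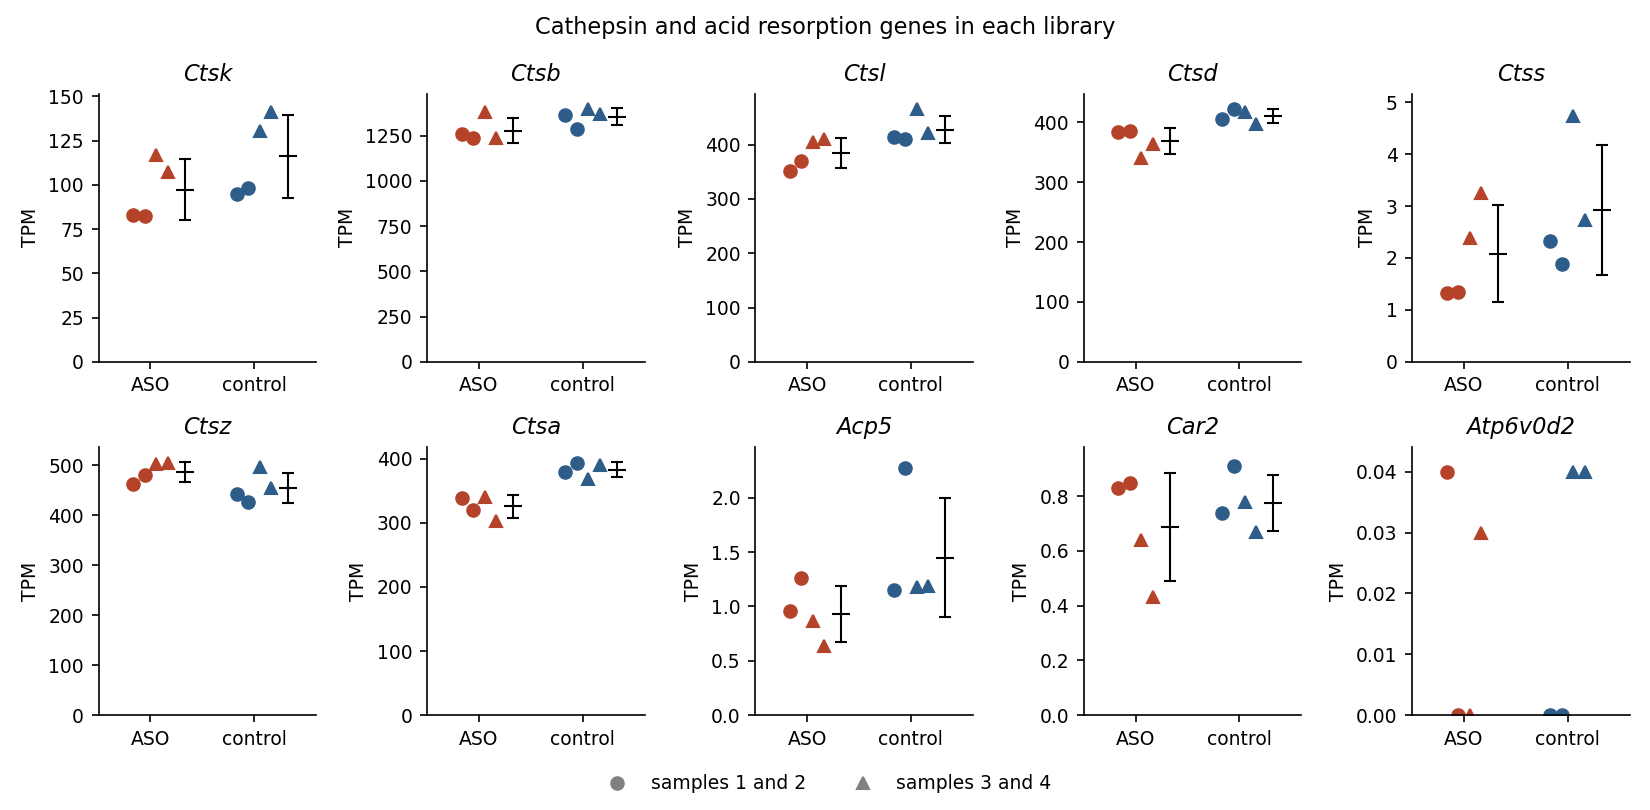
TPM of each member (vertical axis, from 0, own scale per gene) in the ASO libraries (left, red) and control libraries (right, blue), with circles for samples 1 and 2 and triangles for samples 3 and 4. Black bars give mean ± SD (n = 4), left out for Atp6v0d2, which had at most 1 read per library. The groups do not overlap in TPM for Ctsl, Ctsd and Ctsa, and for Ctsk the triangles lie above the circles in both groups. The share of all tested genes without overlap was taken in CPM alone (19.1%), where Ctsl overlaps.

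Cathepsin K is the collagen-cutting protease of resorbing bone cells. Ctsk (gene 13038, chromosome 3, 95499210 to 95509387, GRCm38.p6) had 82.7, 82.5, 117 and 107 TPM in ASO libraries 1 to 4, against 94.6, 98.0, 130 and 141 TPM in control libraries 1 to 4. The groups overlapped, but within samples 1 and 2 both ASO libraries were below both controls, and so they were within samples 3 and 4. Over all libraries Ctsk averaged 97.3 ± 17.4 TPM with the ASO and 116 ± 23.3 TPM without (SD, n = 4), with a log2 fold change of -0.23 ± 0.15 (SE, 95% interval -0.54 to 0.08, edgeR adjusted p = 0.31). In samples 3 and 4 its mean TPM was 1.36 times that in samples 1 and 2 with the ASO and 1.41 times in the controls. The ratio of ASO to control was 0.858 in samples 1 and 2 and 0.824 in samples 3 and 4. With the division as a term, the log2 fold change was -0.23 ± 0.05 and passed (edgeR adjusted p = 0.0033). Within samples 3 and 4 alone it was -0.23 (edgeR adjusted p = 0.034), and within samples 1 and 2 alone -0.22, which did not pass (edgeR adjusted p = 0.076). The call of Ctsk thus depended on whether the division was in the fit, while the direction was negative in the 19 other fits and subsets tried.

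The other acid resorption genes were at the edge of detection, which limits what can be said of them. Acp5, the phosphatase that marks osteoclasts in histology (gene 11433, chromosome 9, 22126727 to 22135746), had 13, 17, 13 and 9 reads in the ASO libraries, against 16, 30, 16 and 17 in the controls. Its mean was 0.93 ± 0.26 TPM with the ASO and 1.45 ± 0.55 TPM without, and the groups overlapped. The log2 fold change of Acp5 was -0.63 ± 0.30 (95% interval -1.27 to 0.01, edgeR adjusted p = 0.17), and without control replicate 2, the library with 30 reads, it was -0.35 (edgeR adjusted p = 0.49). Car2, which hydrates carbon dioxide to supply protons (gene 12349, chromosome 3, 14886269 to 14900770), had 15, 15, 12 and 8 reads with the ASO and 13, 16, 14 and 12 without. The groups overlapped, and the log2 fold change of -0.16 had an interval from -0.75 to 0.43 (edgeR adjusted p = 0.73). Without ASO replicate 4 the estimate for Car2 was 0.0020. Atp6v0d2, the osteoclast form of a proton pump subunit (gene 242341, chromosome 4, 19876838 to 19922566), had 1, 0, 0 and 1 reads in ASO libraries and 0, 0, 1 and 1 in controls. It was below the filter, and a difference was not detectable at this depth. Its widely expressed paralogue Atp6v0d1 was present at 62.9 ± 1.53 TPM with the ASO and 67.5 ± 1.11 TPM without. Atp6v0d1 did not pass (log2 fold change -0.08 ± 0.05, edgeR adjusted p = 0.31).

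Ctsb, a cysteine protease with both endopeptidase and carboxydipeptidase activity (gene 13030, chromosome 14, 63122462 to 63145923), had 1257, 1236, 1378 and 1237 TPM with the ASO and 1367, 1285, 1396 and 1370 TPM without. The groups overlapped, since ASO replicate 3 exceeded 3 of the controls. The log2 fold change of Ctsb was -0.08 ± 0.06 (edgeR adjusted p = 0.34), with a 95% interval from -0.21 to 0.04. Ctsl, a cysteine endopeptidase (gene 13039, chromosome 13, 64361890 to 64370772), had 352, 370, 405 and 410 TPM with the ASO and 414, 411, 465 and 421 TPM without. In TPM every ASO library was below every control, if narrowly, while in CPM the groups overlapped. Its log2 fold change was -0.13 ± 0.07 (95% interval -0.29 to 0.02, edgeR adjusted p = 0.23), and with the division as a term it remained above the threshold (edgeR adjusted p = 0.051). Ctss, the cathepsin of antigen-presenting cells (gene 13040, chromosome 3, 95526786 to 95556405), had only 18, 18, 34 and 46 reads with the ASO and 31, 24, 64 and 37 without. Like Ctsk, it was higher in samples 3 and 4, by 2.12 times with the ASO and 1.77 times in the controls. The log2 fold change of Ctss was -0.45 ± 0.34 (95% interval -1.17 to 0.27, edgeR adjusted p = 0.39), and it was -0.11 without control replicate 3 and -0.76 without ASO replicate 4.

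Ctsz was the one member with a positive estimate. It encodes a cysteine carboxypeptidase also called cathepsin X (gene 64138, chromosome 2, 174427494 to 174439039), and had 462, 480, 501 and 505 TPM with the ASO and 442, 426, 496 and 455 TPM without. Control replicate 3 lay among the ASO libraries, so the groups overlapped. Its log2 fold change was 0.12 ± 0.07 (95% interval -0.02 to 0.26, edgeR adjusted p = 0.24), and over all alternatives it stayed between 0.09 and 0.17 without passing. The share of Ctsz in the summed cathepsin TPM was 16.1% to 17.2% with the ASO and 14.0% to 15.1% in the controls, ranges that did not overlap. This share also depends on the other cathepsins, whose estimates were negative, so it does not show a change of Ctsz alone.

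Ctsd, the main aspartic protease of lysosomes (gene 13033, chromosome 7, 142375910 to 142387827), had 383, 386, 340 and 364 TPM with the ASO and 405, 422, 417 and 397 TPM without. All 4 ASO libraries were below all 4 controls, in TPM and in CPM. The mean was 368 ± 21.3 TPM with the ASO and 410 ± 11.3 TPM without, and the log2 fold change was -0.14 ± 0.05 (95% interval -0.25 to -0.02). Its unadjusted p was 0.025, and after adjustment over all genes it did not pass (edgeR adjusted p = 0.11). DESeq2 (adjusted p = 0.047) and edgeR with the division as a term (adjusted p = 0.042) called Ctsd lower, both close to the threshold.

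Ctsa was the member that fell. It encodes cathepsin A, a serine carboxypeptidase also named protective protein, which forms a complex with the sialidase Neu1 and the beta-galactosidase Glb1 and keeps them stable in the lysosome. Ctsa (gene 19025, chromosome 2, 164832872 to 164841032) had 339, 320, 341 and 303 TPM with the ASO and 379, 394, 369 and 389 TPM without. No ASO library reached the lowest control, and neither group showed the division of the samples. The mean was 326 ± 18.0 TPM with the ASO and 383 ± 11.2 TPM without (SD, n = 4), with a log2 fold change of -0.21 ± 0.06 (95% interval -0.34 to -0.09, edgeR adjusted p = 0.029), a decrease of 13.8%. Neurl2, on the other strand, overlaps the upstream end of Ctsa in GENCODE M21, and with the strandedness of the libraries not given, reads there cannot be told apart. The size was steady, between -0.25 and -0.19 over all alternatives, but the call was near the threshold: leaving out 1 library ended it in 5 of 8 fits (without ASO replicate 2 or 4, or control replicate 1, 2 or 4, edgeR adjusted p from 0.055 to 0.083). It also ended within samples 1 and 2 alone (edgeR adjusted p = 0.067) and samples 3 and 4 alone (edgeR adjusted p = 0.10), at -0.23 and -0.19. With the division as a term Ctsa passed (edgeR adjusted p = 0.0071).

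**Figure D2:**
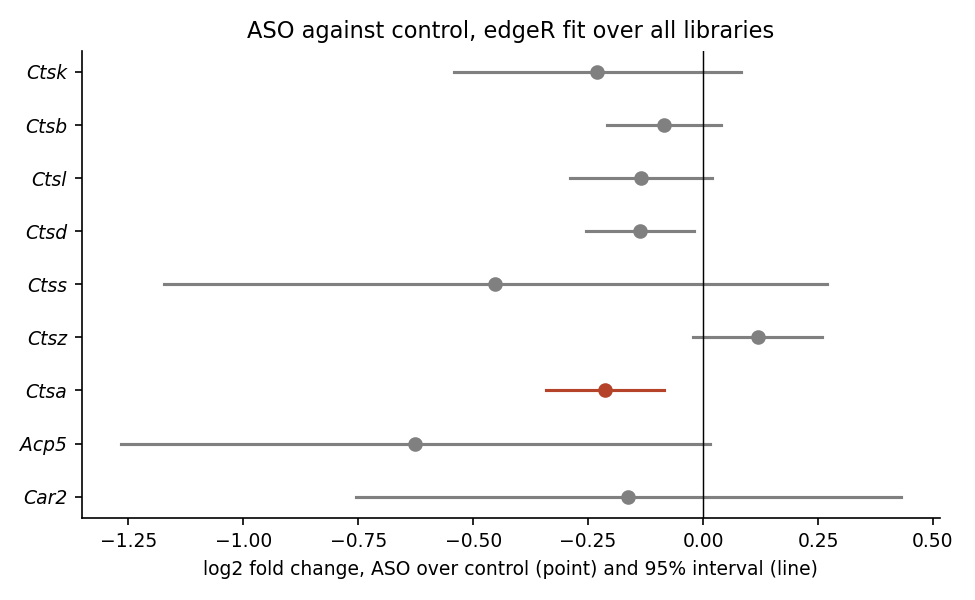
Log2 fold change of ASO over control (horizontal axis, points) with 95% intervals (lines) for the 9 tested members. The red interval, that of Ctsa, belongs to the member that passed, at -0.21. The intervals of Ctss, Acp5 and Car2, with 8 to 64 reads per library, are the widest of the 9.

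**Figure D3:**
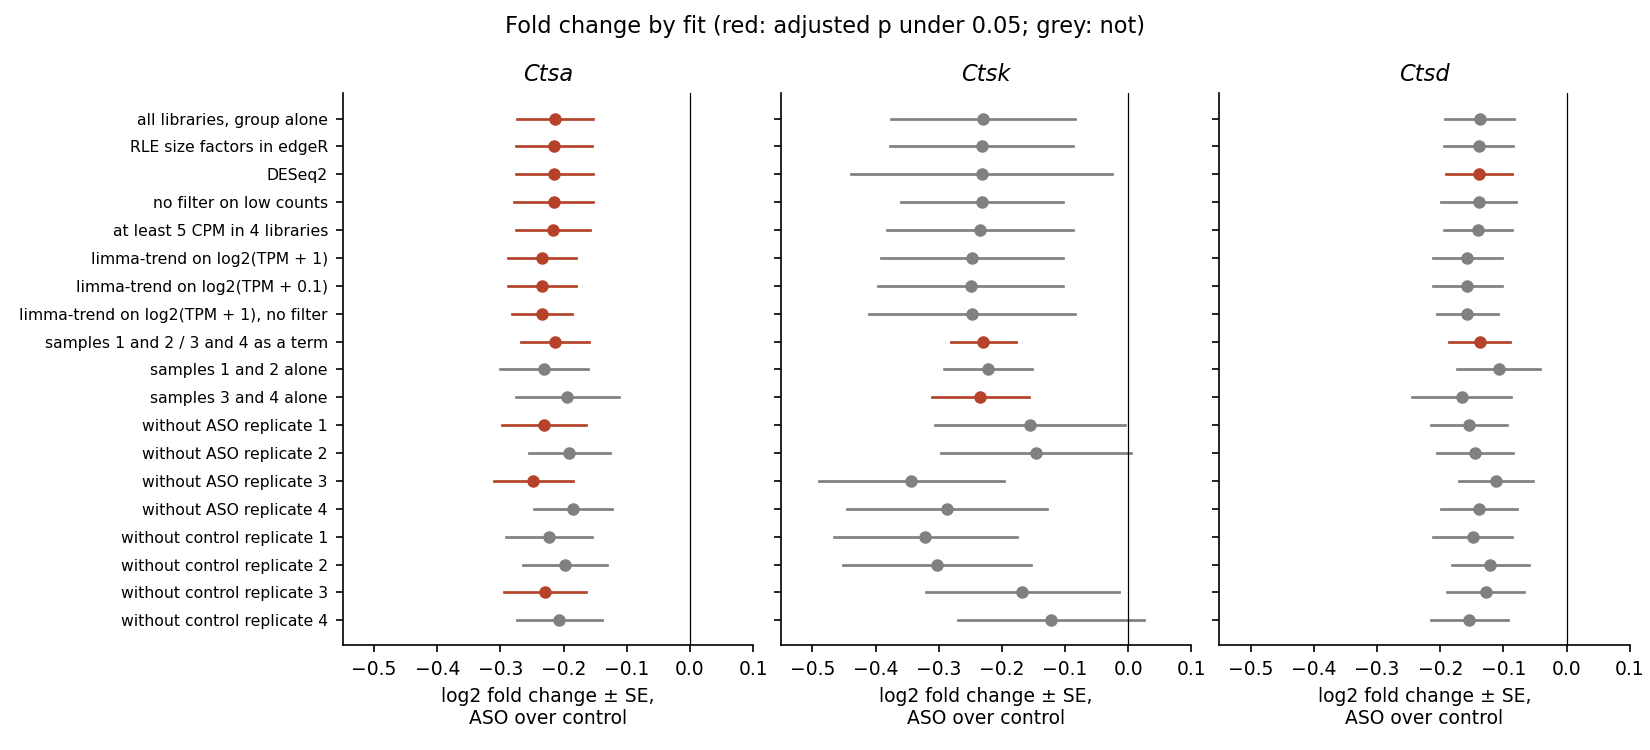
Log2 fold change ± SE of ASO over control (horizontal axis) for Ctsa, Ctsk and Ctsd by fit (rows), red where the adjusted p was under 0.05. The fit with the replicate number as a block is not drawn. Ctsa keeps its size while its call comes and goes, and Ctsk has a value of -0.23 with a smaller SE where the division of the samples enters the fit.

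Of the 2 enzymes that cathepsin A protects, Neu1 fell and Glb1 did not pass. Neu1, which removes sialic acid from glycoproteins, had 8.96, 8.87, 7.47 and 7.85 TPM with the ASO and 11.99, 11.88, 10.15 and 10.95 TPM without. The groups were well apart, at a log2 fold change of -0.42 ± 0.08 (edgeR adjusted p = 0.0037), and the call held in all 8 fits that left out 1 library. Glb1, with some counts that were not whole numbers, had a log2 fold change of -0.12 ± 0.08 (edgeR adjusted p = 0.30).

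Among 36 lysosomal hydrolases and their cofactors, 8 were lower with the ASO and 0 higher, which is 22.2% called against 14.6% of all tested genes. Their median log2 fold change was -0.13, and 27 of the 36 were negative. Gm2a, the activator protein for ganglioside breakdown, had -0.48 ± 0.09 (edgeR adjusted p = 0.0046), and Dnase2a, the acid DNase, -0.40 ± 0.08 (edgeR adjusted p = 0.0062), though in samples 1 and 2 alone Dnase2a did not pass (edgeR adjusted p = 0.19). Psap, the precursor of the saposins that present lipids to lysosomal enzymes, stood near Ctsb in level. It had 1405, 1371, 1273 and 1196 TPM with the ASO and 1656, 1723, 1562 and 1517 TPM without, and fell by 0.28 ± 0.06 on the log2 scale (edgeR adjusted p = 0.011). Hexa, Man2b1 and Sgsh, named after their values were seen, were also lower, with log2 fold changes from -0.46 to -0.19. Lgmn, the asparaginyl protease that processes cathepsins, did not pass (-0.05 ± 0.06, edgeR adjusted p = 0.62). The number of lower hydrolases was 6 to 9 when 1 library was left out, 4 in samples 1 and 2 alone, 9 in samples 3 and 4 alone and 14 with the division as a term.

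Of 12 lysosomal membrane proteins 1 was higher, Cd68, and 0 were lower (8.33% called, against 14.6% of all tested genes), with a median log2 fold change of 0.0018. Cd68, which is also a macrophage marker, rose to 29.8 ± 3.33 TPM with the ASO, against 10.4 ± 2.07 TPM without (log2 fold change 1.54 ± 0.13, edgeR adjusted p = 1.7e-05). Of 9 tested sorting genes, which carry newly made hydrolases to the lysosome, 2 were higher and 0 lower: the sortilin gene Sort1 (1.18 ± 0.19, edgeR adjusted p = 0.0016, at 0.905 TPM with the ASO and 0.408 TPM without) and Nagpa (0.29 ± 0.09, edgeR adjusted p = 0.043). The 2 are 22.2% of the 9, against 14.6% of all tested genes. Nagpa passed without ASO replicate 2 or control replicate 3 but in none of the 6 other fits that left out 1 library (edgeR adjusted p up to 0.13), nor in samples 1 and 2 alone (edgeR adjusted p = 0.27) or on the log2(TPM + 1) scale (limma-trend adjusted p = 0.060). The mannose 6-phosphate receptor genes M6pr (-0.0075 ± 0.06, edgeR adjusted p = 0.95) and Igf2r (-0.25 ± 0.10, edgeR adjusted p = 0.10) did not pass, although Igf2r did with the division as a term (edgeR adjusted p = 0.0021), in samples 1 and 2 alone (edgeR adjusted p = 0.023) and without control replicate 3 (edgeR adjusted p = 0.022). Tfeb, Tfe3 and Mitf, the tested genes for factors that bind the CLEAR element, gave 0 calls, with Tfeb at -0.13 ± 0.10 (edgeR adjusted p = 0.43). Within samples 3 and 4 alone Tfeb was lower (-0.29, edgeR adjusted p = 0.044), and its sign varied among the alternatives that did not pass.

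Of 4 other cathepsins tested, 1 was higher and 0 lower (25% called, against 14.6% of all tested genes). Ctsc, which activates granule serine proteases, had 392, 444, 434 and 529 reads with the ASO and 317, 336, 370 and 339 without, a log2 fold change of 0.37 ± 0.09 (edgeR adjusted p = 0.014). In TPM its groups overlapped, with 18.3 TPM in control replicate 4, and on the log2(TPM + 1) scale it did not pass (limma-trend adjusted p = 0.24), nor did Ctsc in samples 1 and 2 alone (edgeR adjusted p = 0.086). Ctsh, an aminopeptidase, did not pass (-0.09 ± 0.09, edgeR adjusted p = 0.51). The rest of the 4, named to complete the list, were negative and just missed the threshold. They were Ctsf (-0.64 ± 0.21, edgeR adjusted p = 0.057) and Ctso (-0.22 ± 0.07, edgeR adjusted p = 0.055), and for Ctso the groups did not overlap. Thus 3 of the 4 had a negative log2 fold change, with a median of -0.15.

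Of 6 tested inhibitors of the cysteine proteases, 3 were lower and 0 higher, where 7.53% of all tested genes were lower. Cst3, which encodes the secreted inhibitor cystatin C, had 1450, 1456, 1284 and 1550 TPM with the ASO and 1882, 1929, 1850 and 1687 TPM without. The groups did not overlap, with a log2 fold change of -0.34 ± 0.07 (edgeR adjusted p = 0.0048), and the call held in all 8 fits that left out 1 library. Cstb, which encodes the cytosolic inhibitor cystatin B, did not pass, at 1110 ± 75.4 TPM with the ASO and 1087 ± 41.8 TPM without (0.05 ± 0.07, edgeR adjusted p = 0.66). Kng2 (-0.97 ± 0.13) and Kng1 (-1.06 ± 0.28), paralogous kininogen genes whose counts were not whole and are uncertain, were the other lower inhibitors. The call of Kng1 was lost without control replicate 3 or 4 (edgeR adjusted p = 0.055 and 0.064) and in samples 1 and 2 alone (edgeR adjusted p = 0.19).

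Of 19 other tested subunits of the vacuolar proton pump, 2 were lower and 0 higher (10.5% called, near the 14.6% of all tested genes), with a median log2 fold change of -0.06. They were Atp6v1b2 (-0.21 ± 0.06, edgeR adjusted p = 0.045) and Atp6v0e2 (-0.56 ± 0.17, edgeR adjusted p = 0.045), and leaving out 1 library ended each call in 7 of 8 fits (edgeR adjusted p up to 0.10 for Atp6v1b2 and 0.12 for Atp6v0e2). Atp6v1b2 still passed without ASO replicate 3 and Atp6v0e2 without control replicate 2. In samples 1 and 2 alone neither passed (edgeR adjusted p = 0.059 for Atp6v1b2 and 0.20 for Atp6v0e2), and in samples 3 and 4 alone Atp6v1b2 did not (edgeR adjusted p = 0.25). Tcirg1, the subunit through which osteoclasts place the pump in their ruffled border, was present at 112 ± 4.76 TPM with the ASO and 103 ± 5.92 TPM without (0.14 ± 0.06, edgeR adjusted p = 0.14). Of 10 acid and chloride transport partners 1 was lower, the bicarbonate cotransporter gene Slc4a7 (-0.46 ± 0.07, edgeR adjusted p = 8.2e-04). That is 10% of this list, below the 14.6% of all tested genes. Clcn7, the lysosomal chloride exchanger that osteoclasts need, had -0.06 ± 0.06 (edgeR adjusted p = 0.53), the anion exchanger gene Slc4a2 -0.06 ± 0.05 (edgeR adjusted p = 0.52) and Slc9b2 -0.25 ± 0.26 (edgeR adjusted p = 0.54).

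Of the other carbonic anhydrases, Car9 and Car13 had means above 10 TPM in both groups. Car9, a membrane enzyme that acidifies the outside of the cell and is known as a hypoxia target, had 175, 168, 108 and 100 TPM with the ASO and 278, 307, 237 and 253 TPM without. It was lower in every ASO library, at -0.95 ± 0.15 (edgeR adjusted p = 0.0013). Car15 rose by 1.35 ± 0.18 on the log2 scale (edgeR adjusted p = 5.1e-04), to 4.48 ± 0.72 TPM with the ASO, against 1.67 ± 0.29 TPM without. Of 7 tested other carbonic anhydrases these were the 2 that passed (28.6%, against 14.6% of all tested genes), and Car12 did not (0.28 ± 0.20, edgeR adjusted p = 0.37). Beside Acp5, 4 other acid phosphatases were tested, and 1 of them was called (25%). Acpp was lower (-0.82 ± 0.15, edgeR adjusted p = 0.0031) and the lysosomal Acp2 was not called (-0.10 ± 0.06, edgeR adjusted p = 0.28).

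**Figure D4:**
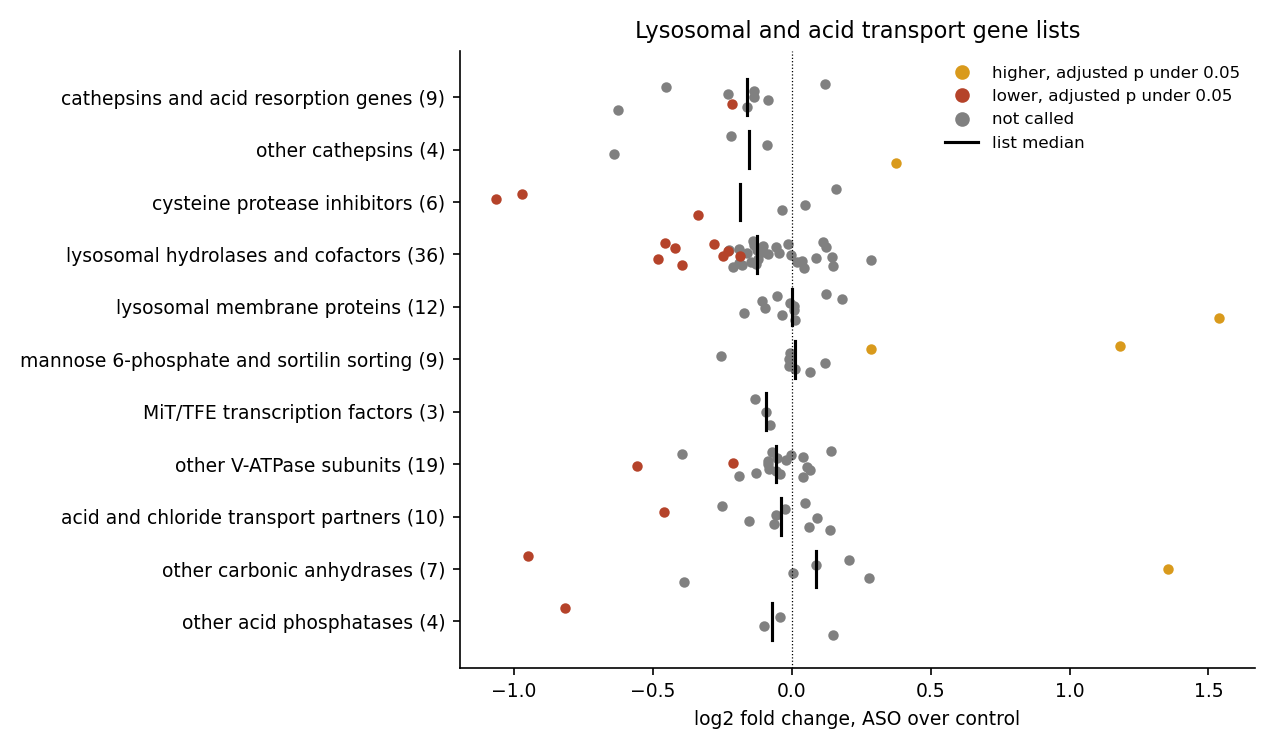
Log2 fold change of ASO over control (horizontal axis) for each tested gene of the lysosomal and acid transport lists (rows, number tested in brackets), yellow where higher, red where lower and grey where not called, with the list median as a black line. The hydrolases have 8 red points and a median of -0.13, while the membrane proteins have a median of 0.0018.

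Proteases that cut matrix outside the lysosome were partly lower. Mmp13, a collagenase that acts with cathepsin K in perilacunar remodelling, had 42.9, 46.1, 54.6 and 60.2 TPM with the ASO and 99.9, 114, 97.3 and 109 TPM without. The groups were far apart, at a log2 fold change of -1.02 (edgeR adjusted p = 8.1e-05). Mmp2, a gelatinase gene, fell by 0.31 ± 0.06 on the log2 scale (edgeR adjusted p = 0.0056). Mmp14, with some counts not whole, had -0.23 ± 0.09 and did not pass (edgeR adjusted p = 0.092), but did with the division as a term (edgeR adjusted p = 0.012) and without control replicate 3 (edgeR adjusted p = 0.030). Of 9 tested genes of perilacunar remodelling other than the members, these made 2 lower and 0 higher (22.2% called, against 14.6% of all tested genes).

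Markers of osteoclasts and macrophages were examined because both cell types carry several members. Of 12 osteoclast markers, 3 of them members, 9 were in the table. Tnfrsf11a, the receptor for RANKL, had 1 read in ASO replicate 4 and 0 in the other 7 libraries, and Oscar had 0 to 3 reads. The osteoclast list summed to 271 to 385 CPM with the ASO and 364 to 423 CPM without, of which the transcription factor gene Nfatc1, not called (-0.21 ± 0.14, edgeR adjusted p = 0.33), made the larger part. Nfatc1 was lower within samples 3 and 4 alone (-0.39, edgeR adjusted p = 0.013). Ocstamp was the lower one of 6 tested (-1.02 ± 0.27, edgeR adjusted p = 0.025), with 11 to 18 reads with the ASO and 18 to 36 without, and its call was lost without ASO replicate 2 or 3 or control replicate 1 or 2 (edgeR adjusted p up to 0.078) and in samples 3 and 4 alone (edgeR adjusted p = 0.25). The 9 macrophage markers in the table summed to 41.4 to 44.0 CPM with the ASO and 20.6 to 32.4 CPM without, of which Cd68 and Cd14 made most. The defining genes Ptprc, Itgam, Spi1 and Cx3cr1 were at or near 0, with at most 13 reads in a library. Of 4 tested macrophage markers 1 was higher, Cd68, which also stands among the lysosomal membrane proteins, and 0 lower. The share called was 25% of these macrophage markers and 16.7% of the tested osteoclast markers, against 14.6% of all tested genes. Of 5 endothelial markers 3 were in the table, summing to 0.66 to 1.35 CPM with the ASO and 0.56 to 1.13 CPM without. The part of these cell types in the values of the members was not tested, and a change in the number of cells of a kind cannot be told apart from a change in RNA per cell in these bulk libraries.

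Over the 8 libraries the genes whose centred log2 CPM lay nearest to those of Ctsa, among 10041 other genes with a mean of at least 5 CPM, were Cebpz and Cnn3, with root mean square differences of 0.033 and 0.035. Their log2 fold changes, which the choice by likeness to Ctsa largely fixes, were -0.20 for Cebpz and -0.26 for Cnn3.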

How the data were processed

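The authors deposited 1 table with, per library, estimated read counts, FPKM and TPM, per the file headers. The deposited TPM and FPKM are relative to gene length and library depth, and FPKM was not used. The submitters' processing notes name HISAT, Bowtie2, GRCm38.p6 and mm10 without roles. For the counting tool, annotation and strandedness, the sources used here give nothing. Of the deposited estimated counts, 6.01% to 6.60% per library were fractional (tolerance 0), and all were rounded. Of the gene IDs 99.7% matched RefSeq, which gave the coordinates. The limit for 0 reads covers counting error only.

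The test was edgeR 4.0.16 in R 4.3.3 (filterByExpr, TMM, glmQLFit and glmQLFTest) on group alone. SEs came from the F statistic and 95% intervals from its degrees of freedom, so they include the spread between libraries. CPM are after TMM. On simulated data for this comparison (3 simulations of 12227 genes, 200 changed), edgeR recovered 42.0% of genes changed 1.25-fold and 78.0% at 1.5-fold, and 5.47% of calls were false. Smaller changes were not simulated. The estimates for Ctsb, Ctsl, Ctsd, Ctsz, Ctsa and Ctsk were all smaller, from 5.7% lower for Ctsb to 14.7% lower for Ctsk. A member that did not pass may thus still have changed by such an amount. The simulated data had no division of samples 1 and 2 from samples 3 and 4. They also held a smaller share of changed genes than the 14.6% called here, so the simulated rates need not hold for these libraries. Replicate numbers were not taken to pair the samples, though pairing is not excluded. Alternatives used DESeq2 1.42.0, limma 3.58.1, other filters and scalings, the division of the samples and each library left out. The members and 15 context lists were chosen with earlier results of these data known. Named genes were the members, 22 genes taken whatever their values, up to 3 called genes with the smallest p per list, and the 2 nearest in pattern to each called member.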

Additional observations from a re-analysis of the deposited data

Results flagged for a closer look

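In 98 groups of 4 libraries (the members and named genes), a library that stood clear of the other 3 was found in 3 groups, where chance gives about 1 in 20. Acp5 was at 1.57 CPM in control replicate 2, against 0.81 to 0.87 CPM in the other controls. Lgmn was at 183.8 CPM in ASO replicate 3, against 165.1 to 168.0 CPM in the other ASO libraries. M6pr was at 132.6 CPM in ASO replicate 3, against 113.7 to 115.6 CPM in the other ASO libraries.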

How the results depend on the processing

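No member changed sign as a called value in any of the alternatives. The count of members called, 1 with edgeR over all libraries, was 2 with DESeq2, 3 with the division of samples 1 and 2 from samples 3 and 4 as a term, 0 in samples 1 and 2 alone, 0 at an adjusted p under 0.01, and 0 to 1 when 1 library was left out. Over all genes the 1790 calls became 3136 with the division as a term, 1036 in samples 1 and 2 alone, 1153 on log2(TPM + 1) with no filter and 702 at an adjusted p under 0.01, and 1105 to 1940 without 1 library (1191 without ASO replicate 3, 1129 without ASO replicate 4 and 1105 without control replicate 2). With the replicate block, 2575 genes and 2 members were called, Ctsk being the added one. Correlations of same-numbered samples were 0.049 to 0.21, and ASO replicates 1, 2 and 4 correlated best with a control of another number, so the numbers were not taken to pair the samples. The cause of these shifts was not tested. Depth limits Acp5, Car2, Ctss and Atp6v0d2, at 0 to 64 reads per library.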
